A study of Drosophila melanogaster with 4 samples.

Results

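Across chromosome arms X, 2L, 3L and 3R of Drosophila melanogaster ML-DmBG3-c2 cells, 268 long stretches held no region called for H3K36me2 in any of the 3 deposited lists. Members were chosen by position alone: all intervals of the lists were joined on each arm, and an uncovered stretch of 75000 bp or more between intervals, or between an interval and an arm end, was kept. They were 268 of the 4779 uncovered stretches on these arms, and of 6410 on all the sequences named in the lists, with the sequence Uextra left out. The measured intervals themselves chose the members, so their number, length and position are given as a description, with no test.

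H3K36me2, the dimethylated form of lysine K36 on histone H3, was mapped by chromatin immunoprecipitation and sequencing (ChIP-seq) with a mouse monoclonal antibody. ML-DmBG3-c2 is a cultured line from the larval central nervous system at the third instar stage, with the genotype y v f mal and unknown sex in the labels. The 2 ChIP samples were ChIP replicate 1 and ChIP replicate 2, and the 2 Input samples were unenriched DNA of the same line. Some descriptions in the labels go against the titles: that of ChIP replicate 1 says input DNA, and those of ChIP replicate 2 and Input replicate 1 name ChIP DNA and input DNA together. Groups follow the titles, and both ChIP lists hold called regions. On the 4 arms the lists held 4147 intervals in replicate 1, 4154 in replicate 2 and 4773 in the combined list of the replicate set. Without read counts in the lists, library depths were unknown, and an uncovered stretch is one where the authors' caller reported nothing. The labels do not tie the replicates to separate cultures, and the spread between them may therefore be technical.

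In Drosophila, H3K36 dimethylation is laid down by methyltransferases that include Ash1 and NSD (Mes-4), while Set2 makes the trimethylated form over the bodies of transcribed genes. Methylation of H3K36 hinders the Polycomb enzyme that methylates H3K27, and Ash1 is known as an antagonist of Polycomb silencing. Much of the fly genome in cultured cells lies in long silent domains that lack the marks of active genes. Which genes lie inside the stretches was not analysed here, because no annotation on the build of the lists, FlyBase r5, was used.

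The stretches were a small share of all uncovered stretches and held about as much uncovered sequence as all the others together. They made up 5.61% of the uncovered stretches on the 4 arms and 50.3% of the uncovered sequence. Their summed length was 38.0 Mb, or 38.8% of the 97.9 Mb of the arms. The other 4511 uncovered stretches had a median of only 3.10 kb. Of all stretches, 969 were under 1 kb, 2572 measured 1 to 10 kb, 531 measured 10 to 25 kb, 302 measured 25 to 50 kb and 137 measured 50 to 75 kb. Outside the members, clusters (called regions) covered 32.9% of the sequence in replicate 1 and 31.5% in replicate 2, or 32.2% ± 1.02 (SD, n = 2).

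Most members were between 75 and 150 kb long, with a tail beyond 300 kb. The median was 122.8 kb, with quartiles at 94.7 and 167.4 kb, and the mean was 141.8 ± 63.4 kb (SD over stretches). There were 81 members under 100 kb, 92 from 100 to 150 kb, 51 from 150 to 200 kb, 37 from 200 to 300 kb and 7 of 300 kb or more. These last 7 lay on 2L, 3L and 3R, and together they held 6.59% of the members' sequence. The 89 longest members, those of 152.3 kb or more, reached 50 percent of it. Near the minimum the lengths ran without a break. Just inside it were stretches of 75108 bp on 3R from 24446397 to 24521504, 75306 bp on 3L from 14665519 to 14740824 and 75497 bp on X from 21519830 to 21595326. Just outside it were 74972 bp on 3L from 15614415 to 15689386, 74333 bp on X from 8791493 to 8865825 and 74197 bp on X from 4446581 to 4520777.

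The 4 arms held similar numbers of members, and X had the shortest maximum length. Arm X had 65 members over 39.4% of its sequence, 2L had 68 over 42.6%, 3L had 66 over 37.95% and 3R had 69 over 36.1%. Median lengths were 129.0 kb on X, 121.8 kb on 2L, 113.7 kb on 3L and 129.5 kb on 3R. Built from each replicate list alone by the same rule, the shares were 41.2% ± 1.35 on X, 46.4% ± 2.16 on 2L, 42.1% ± 0.505 on 3L and 38.2% ± 1.06 on 3R (SD, n = 2 for each). Arm 2L was highest in each replicate, at 44.9% in replicate 1 and 47.9% in replicate 2. Arms X and 3L did not differ beyond the spread between replicates. The strip plot of lengths shows the shorter tail of X. The longest member of X measured 249.7 kb, against 383.2 kb on 2L, 390.5 kb on 3L and 359.7 kb on 3R. In the replicate lists alone the longest stretch averaged 357.4 kb on X and 360.1 kb on 3R. It averaged 432.7 kb on 2L and 398.1 kb on 3L (n = 2 for each).

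**Figure D1:**
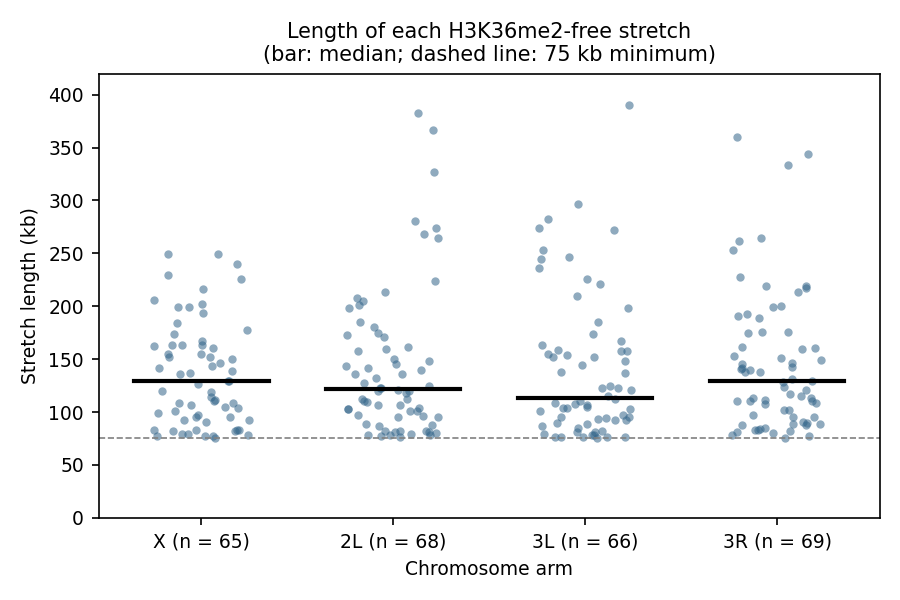
Length in kb of each of the 268 H3K36me2-free stretches (points), by chromosome arm, with the arm's median as a bar and the 75 kb minimum as a dashed line. Medians lie between 113.7 and 129.5 kb on all 4 arms, and points above 300 kb occur on 2L, 3L and 3R.

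The maximum of 249.7 kb on X rested on calls of the combined list alone. In each replicate list the longest cluster-free stretch of X ran over 357.2 kb in replicate 1 and 357.7 kb in replicate 2. The combined list splits that sequence, from 20535677 to 20892846, into members of 177.6 and 152.2 kb. The split consists of 2 short combined-list clusters that cover 7.32% of a 27.3 kb spacing, and the higher of their scores was 2.02. Neither replicate list had a cluster there. The score is the authors' own value for a region, on a scale not given in the sources used here, and it was compared only within a list or as replicate means.

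A stretch found in one replicate was almost free of clusters in the other replicate, a measure that the choice of the stretch did not use. Built from replicate 1 alone, 272 stretches of 75000 bp or more were covered by replicate 2 clusters over 0.372% of their sequence, against 32.3% of the remaining arm sequence. Built from replicate 2 alone, 282 stretches were covered by replicate 1 clusters over 0.831%, against 34.5% of the rest. As means over these directions, coverage was 0.601% ± 0.325 inside and 33.4% ± 1.54 outside (SD over the 2 directions). Each direction uses both replicates, so this SD is not a spread between replicates. The difference was far larger than that between the directions. No p-value was computed.

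Clusters of the other replicate that lay wholly inside these stretches were few, short and low in score. Of the replicate 1 stretches, 37 of 272, or 13.6%, held a whole replicate 2 cluster, 45 clusters in all. Of the replicate 2 stretches, 66 of 282, or 23.4%, held a whole replicate 1 cluster, 97 in all. These intruding clusters had median scores of 0.47 in replicate 2 and 0.55 in replicate 1, against 0.93 and 0.97 over all clusters of those lists on the 4 arms. Their median lengths were 1815 and 1879 bp, against 2907.5 and 3084 bp over all clusters of the same lists. The largest exception was a replicate 1 cluster of 17397 bp, and the highest score among the intruders was 2.63 in replicate 1. Clusters that cross an edge are not in these counts. The other replicate overlapped 127 of the replicate 1 stretches and 181 of the replicate 2 stretches at an edge only. No overlap at all was found in 108 (39.7%) of the replicate 1 stretches and 35 (12.4%) of the replicate 2 stretches.

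The extent of the members differed little between the replicates, which the rule fixes in part: a member is free in every list, so its cluster-free length in a replicate is at least its own length. The cluster-free length around a member had a median of 129.7 kb in replicate 1 alone, 137.0 kb in replicate 2 alone and 123.6 kb in the combined list. Members that share a stretch in a list each count its length here. With every stretch of a list counted once, by the same rule, the median was 126.4 kb in replicate 1 and 123.6 kb in replicate 2. In 217 of the 268 members, or 81.0%, the lengths in the replicates lay within 5 percent of each other, and the median SD between replicates was 0.386 kb. In 14 members they were more than 1.5-fold apart, 11 of them longer in replicate 2 and 3 longer in replicate 1. Several of the 14 lie in the same cluster-free stretch of a replicate, so they are not all separate differences. The farthest apart was the 96.0 kb member on 2L from 16146246 to 16242283, which was part of a 482.3 kb stretch in replicate 2 and measured 96.0 kb in replicate 1.

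**Figure D2:**
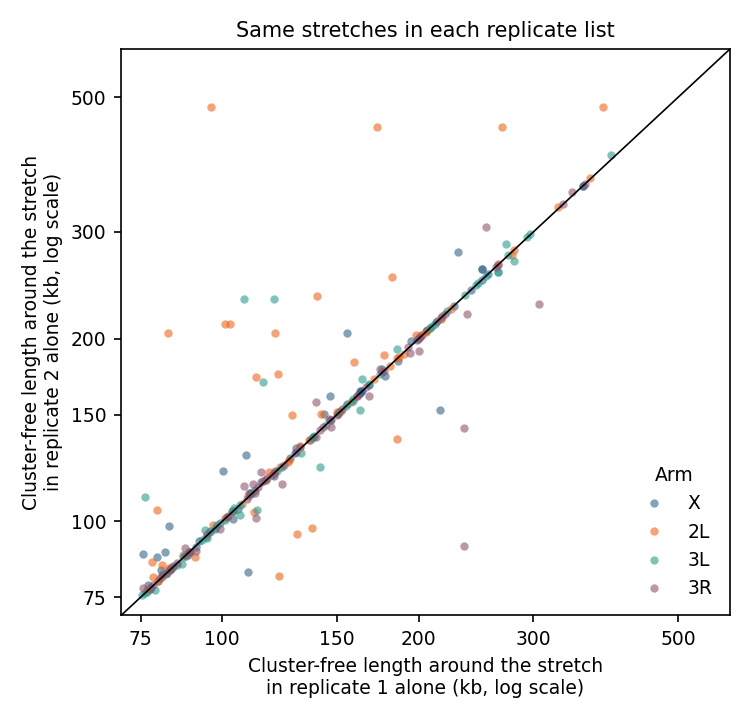
Cluster-free length around each of the 268 members in replicate 1 alone (x axis) and replicate 2 alone (y axis), in kb on log scales, coloured by arm, with the line of equal length. Most points lie close to the line, and 11 of the 14 members more than 1.5-fold apart lie above it. Members that share a stretch in a replicate are separate points.

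On 3L the longest member of all ran from 13506970 to 13897505 and measured 390.5 kb. Its cluster-free length was 395.2 kb in replicate 1, 401.0 kb in replicate 2 and 390.6 kb in the combined list. Its left edge was set by a combined-list cluster of 1247 bp (score 0.46) that neither replicate had, and its right edge by a cluster of 3026 bp in replicate 1 (score 1.26) and 2422 bp in replicate 2 (score 0.88). The next on this arm were 296.9 kb from 4831948 to 5128834, 282.4 kb from 17045518 to 17327869, 274.2 kb from 23747331 to 24021560 and 272.5 kb from 18177454 to 18449971. Between the replicates the cluster-free lengths of these 4 differed most for the last, at 272.5 kb in replicate 1 and 286.0 kb in replicate 2. The member from 23747331 to 24021560 stood out by its left flank, a cluster of 16587 bp scoring 2.06 in replicate 1 and of 16259 bp scoring 2.09 in replicate 2.

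On 2L the longest member ran from 15760770 to 16143925 over 383.2 kb, and a single cluster parts it from the 96.0 kb member named above. That cluster of 2320 bp scored 1.74 in replicate 1 and 1.77 in the combined list, where it measured 2214 bp, and replicate 2 had no cluster there. Together these members and the cluster span 481.5 kb. The next member, 366.3 kb from 14606835 to 14973180, was bordered in both replicates: on the left by 7539 bp (score 2.25) in replicate 1 and 6401 bp (score 1.46) in replicate 2, and on the right by 12094 bp (score 1.66) and 5106 bp (score 1.54). The flanks of the other long members of 2L were mostly weaker. The member of 326.6 kb from 4469399 to 4795957 had flank scores of 0.54 and 0.67 in replicate 1 and 0.38 and 0.58 in replicate 2. The member of 280.4 kb from 18159205 to 18439564 had 0.12 and 0.73 in replicate 1 and 0.15 and 0.65 in replicate 2. The last of the 5, 274.3 kb from 21838041 to 22112315, had a left flank that scored 1.41 in each replicate, over 8442 bp in replicate 1 and 8470 bp in replicate 2, and a right edge set by a 1491 bp cluster of replicate 2 alone (score 0.36).

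On 3R the longest member, 359.7 kb from 23794562 to 24154291, measured 360.1 kb in each replicate. Weak clusters bordered it, with scores of 0.75 and 0.40 in replicate 1 and 0.84 and 0.39 in replicate 2. The second, 343.9 kb from 12469995 to 12813910, measured 344.3 kb in replicate 1 and 348.4 kb in replicate 2, where its left neighbour was not the 1655 bp cluster of replicate 1 (score 0.30) but one of 11479 bp (score 1.54). The next, 333.4 kb from 1833559 to 2166976, differed little between the lists, at 333.5 kb in replicate 1 and 333.6 kb in replicate 2. It was bordered by clusters of 2898 to 3766 bp with scores from 0.99 to 1.29 in the replicates. The remaining members of the 5 measured 264.6 kb from 23106802 to 23371405 and 262.2 kb from 18618751 to 18880923. The shorter of them had the strongest flank of this group, a left cluster that scored 2.29 in replicate 1 and 2.23 in replicate 2.

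On X the 5 longest members lay between 226.1 and 249.7 kb. They ran from 21599549 to 21849280 (249.7 kb), from 19802628 to 20051699 (249.1 kb), from 18025118 to 18265496 (240.4 kb), from 21945343 to 22175078 (229.7 kb) and from 9677829 to 9903928 (226.1 kb). The member of 229.7 kb depended most on the replicate, at 229.8 kb in replicate 1 and 278.3 kb in replicate 2, because its right neighbour of 1468 bp (score 1.42) was called in replicate 1 and not in replicate 2. The members of 249.7 and 240.4 kb moved by under 1 kb between the lists. The right flank of the longest scored 2.06 in replicate 1 and 2.15 in replicate 2, and its left flank 0.83 and 0.72.

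The clusters nearest to members had lengths and scores close to those of the rest of the arms. A flanking block is the joined interval of all lists next to a member, and the 268 members had 512 of them, of which 24 lay between 2 members. Flanking blocks had a median length of 2797 bp (quartiles 2005 and 5004.5 bp), and the 4263 other blocks of the arms 2934 bp (1970 and 5297.5 bp). Among the flanking blocks 9.57% reached 10 kb, and among the others 8.96%. In a replicate list the nearest cluster need not touch the member. It lay over 10 kb away at 33 of the 536 edges in replicate 1 and at 49 in replicate 2. The farthest lay 204.9 kb away in replicate 1 and 385.6 kb away in replicate 2. In the replicate lists the nearest clusters had a median length of 2914 ± 72.5 bp and the other clusters 3003 ± 125 bp (SD, n = 2 for each). Median scores were 0.99 ± 0.03 for the nearest clusters and 0.94 ± 0.03 for the other clusters (SD, n = 2 for each). The nearest clusters were slightly shorter in each replicate, at 2965.5 against 3091 bp in replicate 1 and 2863 against 2914 bp in replicate 2, a difference close in size to the spread between replicates. In score the nearest clusters were slightly higher in each replicate. The medians were 1.01 against 0.97 in replicate 1 and 0.97 against 0.92 in replicate 2. Scores of the nearest clusters ranged over quartiles from 0.62 to 1.57 in replicate 1. The replicate-mean median of the nearest clusters was 0.92 with a minimum stretch length of 50000 bp and 0.95 with 100000 bp. Both lie close to the 0.94 of the other clusters at 75000 bp. In 217 members neither flanking block reached 10 kb, in 49 members 1 did, and in 2 members both did.

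**Figure D3:**
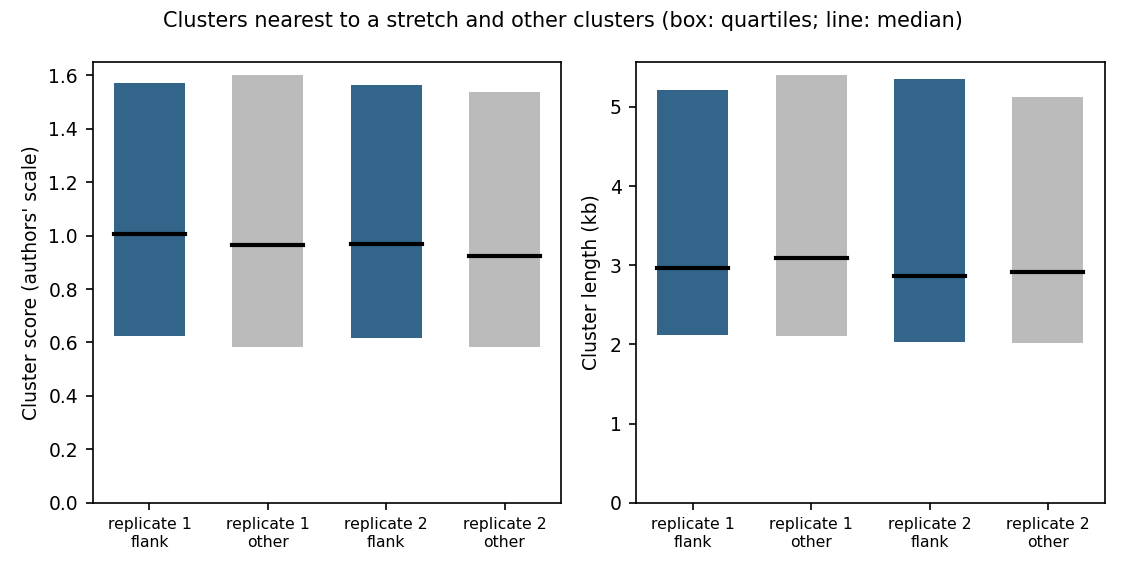
Score on the authors' scale (left) and length in kb (right) of the clusters nearest to a member (blue) and of the other clusters of the 4 arms (grey), in each replicate; boxes span the quartiles and lines mark the medians. The boxes of nearest and other clusters overlap over most of their height in both replicates, with median scores from 0.92 to 1.01.

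By arm, the nearest clusters on 3L had a median score of 1.05 ± 0.10 and the other clusters of that arm 0.88 ± 0.0008. On 3R the order was turned, with 0.85 ± 0.07 for the nearest and 0.92 ± 0.03 for the others. On X the values were 1.12 ± 0.0036 and 1.08 ± 0.02, and on 2L 0.90 ± 0.01 and 0.86 ± 0.05 (SD, n = 2 for each). On X and 3L the nearest clusters were higher in each replicate and in the combined list. On 2L they were higher in replicate 2 (0.90 against 0.82) and in the combined list (0.74 against 0.63), and not in replicate 1, where the medians were 0.89 for both. On 3R they were lower in each replicate, and in the combined list they were higher, at 0.71 against 0.70. These differences were not tested.

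The longest members had slightly weaker flanks than the shortest. Around the 67 longest members, of 167.5 kb or more, the nearest clusters had median scores of 0.85 in replicate 1 and 0.81 in replicate 2. Around the 67 shortest, of at most 94.1 kb, they had 1.05 in each replicate. Median lengths were 2554 and 2497.5 bp around the longest and 3010.5 and 3065 bp around the shortest. Across the 268 members, Spearman's rho between length and mean flank score was -0.15 in replicate 1, -0.14 in replicate 2 and -0.08 in the combined list, which is weak, and members that share a flanking block are not independent points. The scores of the left and right flank of a member were hardly related, with rho of 0.03 in replicate 1 and 0.08 in replicate 2.

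By the combined list, the 2 highest-scoring and the 2 longest neighbouring clusters lay beside members of 110.4 to 117.7 kb. The third by score lay beside a member of 146.4 kb, and the third by length beside one of 75.1 kb. The highest-scoring combined-list neighbour, at 3.13, stood left of a 110.4 kb member on 3R from 22432574 to 22542950. It measured 42266 bp and scored 3.17 in replicate 1 and 3.11 in replicate 2. Second was a cluster of 7454 bp with a combined score of 2.99, left of a 114.6 kb member on X from 18540771 to 18655348. The longest neighbour lay right of a 117.7 kb member on 2L from 17526443 to 17644167. It measured 44385 bp (score 2.96) in replicate 1, 41595 bp (score 2.51) in replicate 2 and 43771 bp (score 2.72) in the combined list, and the 42266 bp cluster on 3R was the second longest. In replicate 2 alone the highest-scoring nearest cluster was another, at 3.39, right of a 143.4 kb member on 2L from 15539192 to 15682569 and 45177 bp away from its edge.

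Most edges were called in every list. Of the 512 flanking blocks, 391, or 76.4%, held clusters of both replicates, 45 held replicate 1 without replicate 2, 28 held replicate 2 without replicate 1, and 48 came from the combined list alone. Among the other blocks of the arms, 72.3% held clusters of both replicates. A member had both flanks in both replicates in 150 cases, 1 such flank in 111 and none in 7. Of the 536 edges, 266, or 49.6%, were placed within 200 bp of each other by the nearest clusters of the replicates, and the median distance was 205 bp. In 49 edges, or 9.14%, the replicates lay more than 10 kb apart. The combined list set the edge in 297 cases, replicate 1 in 183 and replicate 2 in 58, where ties count for each list.

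Regions named as depletion in the combined list played no part in the edges. The 4 arms held 12 of them, with scores below 0, and the rule counts them as covered. None bordered a member directly, and leaving them out changed neither the number nor the summed length of the members. The nearest lay 42 bp from a member on 2L and 56 bp from one on 3R, in blocks whose edge another list's cluster set. Apart from that on 3L from 8515425 to 8517002, the depletion regions overlapped intervals of replicate 2. The replicate 2 list held no depletion regions on the 4 arms, so these intervals stay when depletion regions are left out.

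Coverage was highest within 5 kb of the members and levelled off farther out. In the first 5 kb outward from an edge, clusters covered 63.9% of the sequence in replicate 1 and 59.1% in replicate 2, or 61.5% ± 3.45 (SD, n = 2). This peak follows from the rule, since a member ends where a cluster begins. It was 41.1% ± 1.21 at 5 to 10 kb and 34.1% ± 1.02 at 10 to 20 kb. Farther out it lay between 28.1% ± 1.62 at 40 to 50 kb and 30.9% ± 0.603 at 20 to 30 kb, slightly under the mean of 32.2% ± 1.02 over all arm sequence outside the members (SD, n = 2 for each).

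**Figure D4:**
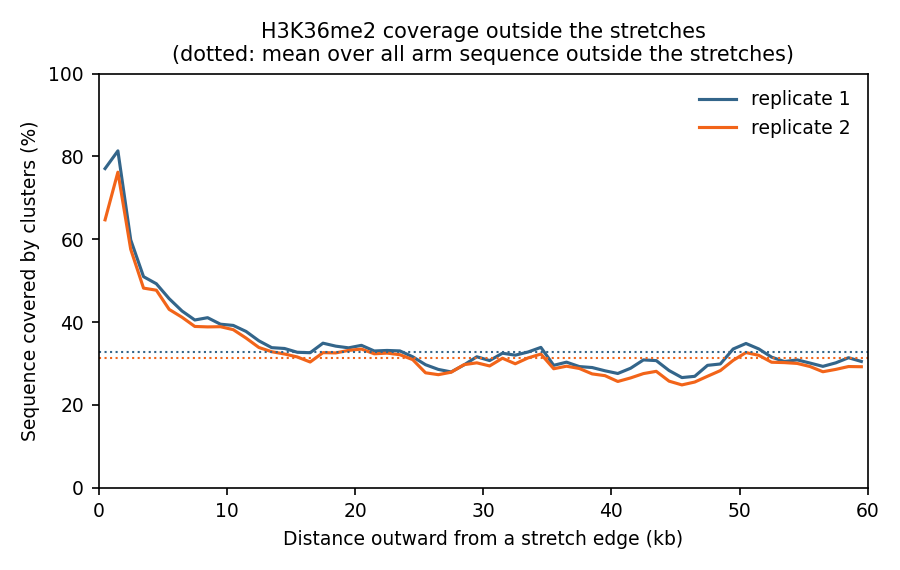
Share of sequence covered by clusters (y axis, percent) against distance outward from a member's edge (x axis, kb), over 536 edges, with sequence inside other members left out; solid lines are the replicates and dotted lines their means over all arm sequence outside the members. Both lines peak at 1 to 2 kb, at 81.3% in replicate 1 and 76.2% in replicate 2. They then fall to about 30% by 20 to 30 kb. From there on they stay near the dotted lines, mostly slightly under them.

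Spacing between successive members ranged from a single short cluster to more than 1 Mb. The 264 spacings had a median of 147.2 kb, with quartiles at 51.2 and 315.4 kb. That median was 88.4 kb when only the highest 50 percent of scores of each list were kept, and 75.3 kb with a minimum stretch length of 50000 bp, which gave 405 stretches. By arm the medians were 136.0 kb on X, 125.6 kb on 2L, 133.1 kb on 3L and 183.9 kb on 3R. A spacing was covered by joined intervals over 39.6% of its length by its median. In 39 spacings, or 14.8%, members lay less than 25 kb apart, and in 26 less than 10 kb apart. In 24 a single block separated the members, and these blocks measured 1579 to 39487 bp with a median of 4243.5 bp.

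Most separators were called in both replicates. Of the 24 single-block separators, 20 were called in both and 4 were absent from at least 1 replicate, beside 76.4% called in both among all flanking blocks. Where called, their highest scores had medians of 1.30 in replicate 1 (23 separators) and 1.19 in replicate 2 (20 separators). Of all 264 spacings, 9 held no cluster in at least 1 replicate, and 3 held none in either. The 3 spacings without a cluster in either replicate lay on X from 18919132 to 18920710, on X from 20713259 to 20740601 and on 3L from 22062396 to 22132714. These positions were chosen for their values. If only sequence covered by both replicate lists counts as marked, 9 stretches hold 2 or more members, the longest over 482.3 kb on 2L.

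Runs of close members formed long tracts with few called regions, which the limit on spacing and the minimum member length fix in part. With a limit of 25 kb on the spacing, 75 members fell into 36 runs: 34 pairs, 1 run of 3 and 1 run of 4. The run of 4, on 2L from 1242075 to 1713382, joined members of 136.3, 95.4, 88.9 and 100.7 kb over 471.3 kb. Clusters covered 8.83% of this run in replicate 1 and 7.98% in replicate 2. From left to right, the highest scores in its spacings were 2.69, 0.72 and 2.51 in replicate 1. In replicate 2 they were 2.43, 0.64 and 2.37. The first of these spacings was a single block of 20509 bp. The run with the longest span, on 2L from 14409309 to 14973180, joined 3 members over 563.9 kb. Only 2.17% of it was covered in replicate 1 and 1.99% in replicate 2. It ends with the 366.3 kb member described above.

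The longest parts of the arms without a member ranged in coverage from under to above the 32.9% (replicate 1) and 31.5% (replicate 2) of all arm sequence outside the members. On 3L, 1473 kb from 7627730 to 9100552 held 99 clusters in replicate 1 and 97 in replicate 2, which covered 29.7% and 27.8% of it. On 3R, 1287 kb from 4343184 to 5629700 held 81 and 85 clusters, which covered 31.1% and 32.3%. On 2L the longest part without a member measured 886.2 kb, from 19336673 to 20222885, and was covered over 41.1% in replicate 1 and 35.2% in replicate 2. On X it measured 833.7 kb, from 8436123 to 9269783, and was covered over 34.8% and 35.6%. These parts were chosen for their length after the values were seen.

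Along the arms the share of sequence in members rose and fell without a trend shared by all of them. The sequences of X, 2L and 3L are numbered from the telomere and that of 3R from the centromere, so each arm was cut into 10 equal segments, numbered from the centromere side. The highest shares were 70.3% in segment 4 of 2L, 61.5% in segment 8 of 3L and 61.3% in segment 3 of 2L. The lowest were 16.8% in segment 7 of 3L, 21.3% in segment 10 of X and 21.8% in segment 10 of 3L. In segment 1, next to the centromere, X reached 58.5%, 3L 49.8%, 3R 41.7% and 2L 28.3%. Averaged over the 4 arms, the shares ranged from 29.5% in segment 7 to 48.2% in segment 4.

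**Figure D5:**
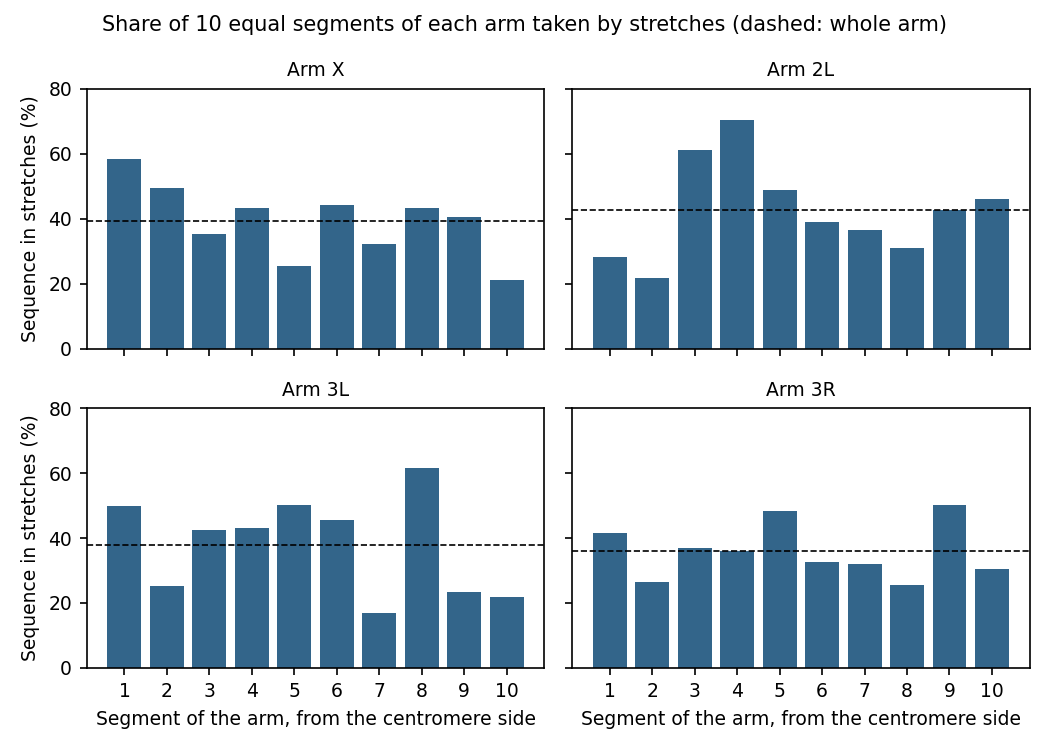
Share of sequence in members (y axis, percent) in 10 equal segments of an arm, numbered from the centromere side (x axis), with 1 panel per arm and the share of the whole arm as a dashed line. Segment 4 of 2L at 70.3% and segment 7 of 3L at 16.8% are the extremes, and no side of the arms is high on all 4.

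No member reached an arm end. Calls lay close to every end: the first block began at position 21 on X, 7571 on 2L, 23460 on 3L and 13038 on 3R, and the last block ended 2579 to 10688 bp before the end of the sequence. The nearest member to a first position was the 103.7 kb stretch on 3L from 28668 to 132402. The nearest to a last position was the 83.4 kb stretch on X from 22286600 to 22369975, 52.9 kb from the end.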

How the data were processed

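H3K36me2 ChIP-seq was done on 2 ChIP samples, and 2 Input samples were sequenced beside them. The authors deposited 3 lists of regions (ChIP replicate 1, ChIP replicate 2 and a combined list), in which a region has 2 positions and a score, the authors' own value on an unstated scale. Positions refer to FlyBase r5 per the file headers and are 1-based. Bowtie 0.12.7 appears in the submitters' processing notes. What called the regions, at which threshold and with which Input sample, is not given in any label or header used here. Depth was unknown, so no interval or detection limit was computed for the stretches, and Input samples had no list of their own to compare with.

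All intervals, depletion regions included, were joined per arm, with arm lengths from the file headers, and uncovered stretches of 75000 bp or more were kept. Flanks were the nearest clusters in each list. Overlap was counted from 1 bp. Stretch finding was checked on 50 simulated lists, all recovered exactly. Stretches named are the 5 longest per arm, the 3 on each side of the minimum, the 2 each with the highest-scoring or longest combined-list neighbour, and the longest run spaced under 25 kb (by members and by span). The members and lists were chosen with earlier results of these data known. The longest spacings and those without replicate clusters, the replicate pairs far apart and the divided X tract were picked after their values were seen. No test was run. Alternatives were single lists, leaving out a replicate's list, depletion regions, low scores, unsupported or short intervals, other minimum lengths and a 50 percent overlap. Python 3.11.15, numpy 2.4.6, SciPy 1.17.1 and matplotlib 3.10.9 were used.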

Additional observations from a re-analysis of the deposited data

How the results depend on the processing

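The number of members stayed within 1.5 times of 268 under every alternative except a minimum of 50000 bp, which gave 405, while 100000 bp gave 187. It rose to 327 with the highest 50 percent of scores and to 290 with sequence covered by both replicates. The summed length was 40.0 Mb (40.9% of the arms) from the replicate 1 list alone, 41.8 Mb (42.7%) from the replicate 2 list alone, 39.3 Mb (40.1%) with intervals that overlap another list, 43.2 Mb (44.1%) with sequence covered by both replicates, 50.8 Mb (51.9%) with the highest 50 percent of scores, 46.3 Mb (47.3%) at 50000 bp and 31.1 Mb (31.8%) at 100000 bp. These follow from counting fewer intervals or other lengths. The median length came to 126.4, 125.3, 128.0, 93.9 and 150.2 kb under replicate 1 alone, overlap with another list, the highest 50 percent of scores, 50000 bp and 100000 bp. The longest stretch was 482.3 kb in replicate 2 alone and in sequence covered by both replicates. The median spacing was 124.3 kb in replicate 2 alone, 88.4 kb with the highest 50 percent of scores, 75.3 kb at 50000 bp and 218.9 kb at 100000 bp. The median flank score was 0.92 at 50000 bp and 0.95 at 100000 bp, against 0.99 as reported. Leaving out the list of replicate 1 or 2 gave 268 to 269 members, 38.03 to 38.26 Mb and 38.85 to 39.09% of the arms. Medians were then 122.8 to 123.05 kb, longest stretches 390.5 to 390.6 kb and spacings 146.4 to 147.1 kb. The combined list of the replicate set stayed in these runs, and it set 297 of the 536 edges. They therefore cannot show what the result would be without the data of that replicate. The 20 longest named members changed by at most 1.26-fold in length, except for 1.45-fold with the highest 50 percent of scores. No paired analysis was possible because the Input samples have no list of their own. Unknown depth limits every statement that a stretch is free of the mark.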

Other observations

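Arm 2R, which was not among the 4 arms described, held 50 uncovered stretches of 75000 bp or more by the same rule. They took up 29.9% of that arm, against 36.1 to 42.6% of X, 2L, 3L and 3R. Their median length was 106.6 kb and the longest measured 280.5 kb. There were 2.36 of them per Mb, against 2.47 on 3R, 2.69 on 3L, 2.90 on X and 2.96 on 2L.

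The lengths of successive members were unrelated in rank, with Spearman's rho of -0.01 over 264 neighbouring pairs on the 4 arms, in which each member enters up to 2 pairs.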
